A study of Mus musculus with 12 samples.

Results

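The 10 keratin genes described here are Krt7, Krt8, Krt18, Krt19, Krt20 and Krt23 of ductal and other simple epithelia, and Krt5, Krt14, Krt17 and Krt6a of basal and stressed stratified epithelia. They were chosen by gene symbol, as 10 of the 57278 genes in the count table. RNA was sequenced from 3 mouse pancreatic tumor cell lines, DDKC_9750, DDKC_9790 and DDKC_9804, each untreated or treated with rDKK3, a recombinant soluble form of the secreted protein DKK3, in 2 libraries per line and condition and 12 libraries in all. DDKC cells were isolated from mice homozygous for a knockout of Dkk3 that also carried Ptf1a Cre, which is active in pancreatic progenitor and acinar cells. The untreated cells carry the same alleles as the treated cells, and each comparison is between cells without and with added DKK3. No dose or duration is given for these RNA samples in the sources used here, and nothing in the labels tells if both libraries of a line and condition stem from 1 culture or from 2.

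Keratins are the intermediate filament proteins of epithelial cells. A filament forms only from pairs of a type I chain (here Krt18, Krt19, Krt20, Krt23, Krt14 and Krt17) and a type II chain (here Krt7, Krt8, Krt5 and Krt6a), so the chains of each type are made together. Pancreatic ducts carry Krt7, Krt8, Krt18 and Krt19, acinar cells carry mainly Krt8 and Krt18, and Krt19 is the usual marker of ductal identity in acinar-to-ductal metaplasia and in pancreatic ductal adenocarcinoma. Krt5 with Krt14 marks basal cells of stratified epithelia, and Krt6a with Krt17 appears in hair follicles, wounds and squamous tumors.

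Krt8, Krt18, Krt19 and Krt7 were the ductal keratins found at a high level in all 3 DDKC lines. Each of these was between 207 and 3563 CPM (counts scaled to a common library size) in every sum of a line and condition. Krt23 and Krt14 were high in DDKC_9790 only, relative to the other two lines, and Krt20 was found at more than 2 counts per summed sample in DDKC_9750 only. Krt5 had 12 counts over all 12 libraries, and Krt17 and Krt6a had 0. After rDKK3, Krt7, Krt8, Krt18 and Krt19 were lower in all 3 lines, as were 18.3% of all genes and 43.3% of genes at 500 CPM or more, but no keratin passed edgeR's test across the 3 lines.

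The depth was 7520741 to 24541083 counts per untreated library and 3822987 to 11567095 counts per treated library. In DDKC_9750 and DDKC_9804 both treated libraries were shallower than both untreated ones. A level of 3 counts, taken as the floor, was 0.127 to 0.754 CPM per library, and floors and intervals cover counting error only. Dkk3 had 1 count in 1 of the 12 libraries, counted over the whole gene and not within the part that the knockout replaces. Library pairs of a line and condition were compared over 12979 genes whose mean was 20 counts or more. Once each gene was allowed a common shift by library number (lower or higher within the pair), they differed by less than sampling noise (mean deviance 0.764 per degree of freedom, and 6.39 without the shift). Krt8, Krt19, Krt18 and Krt7 lay above this mean, at 2.65, 2.10, 1.56 and 1.05 per degree of freedom with the shift allowed. The libraries were added and counted as 1 sample, which gave 6 sums and n = 3 lines per condition. The keratin count that passed the filter on low counts was 7, namely all but Krt5, Krt17 and Krt6a.

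The stretch just upstream of the transcription start was compared for the main filament pair, Krt8 and Krt18, for Krt7, whose treated sums all lay below its untreated ones, and for Krt20, which was on in a single line. The 250 bases before the start are shown 5′ to 3′ on the strand of the gene, from RefSeq on the GRCm38.p6 build, with matches to the searched motifs in capitals. RefSeq promoters were found for 7 of the 10 genes, and not for Krt19, Krt17 and Krt6a.
Krt8, chr15:102004343-102004592, minus strand: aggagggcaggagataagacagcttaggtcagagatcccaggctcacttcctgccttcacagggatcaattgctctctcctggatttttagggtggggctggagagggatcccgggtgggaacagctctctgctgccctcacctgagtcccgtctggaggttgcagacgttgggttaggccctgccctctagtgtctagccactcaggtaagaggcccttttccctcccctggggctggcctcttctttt
Krt18, chr15:102027966-102028215, plus strand: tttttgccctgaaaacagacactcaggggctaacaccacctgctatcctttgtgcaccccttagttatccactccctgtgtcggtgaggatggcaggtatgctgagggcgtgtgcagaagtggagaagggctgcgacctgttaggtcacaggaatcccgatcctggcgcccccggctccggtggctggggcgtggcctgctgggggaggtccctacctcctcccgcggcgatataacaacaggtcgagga
Krt7, chr15:101412153-101412402, plus strand: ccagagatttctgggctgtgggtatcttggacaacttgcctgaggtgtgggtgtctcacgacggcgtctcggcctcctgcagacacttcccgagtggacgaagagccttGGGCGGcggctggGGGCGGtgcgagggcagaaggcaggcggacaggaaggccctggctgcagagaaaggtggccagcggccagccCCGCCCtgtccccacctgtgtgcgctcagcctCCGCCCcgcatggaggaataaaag
Krt20, chr11:99438154-99438403, minus strand: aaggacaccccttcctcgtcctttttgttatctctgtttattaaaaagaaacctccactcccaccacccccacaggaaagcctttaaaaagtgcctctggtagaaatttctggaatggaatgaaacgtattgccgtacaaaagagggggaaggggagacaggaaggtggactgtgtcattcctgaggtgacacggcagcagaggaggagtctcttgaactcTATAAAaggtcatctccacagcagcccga

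Both strands were searched for TATAAA (the TATA box), GGGCGG (the GC box bound by Sp1-family factors), CCAAT and TGANTCA (the AP-1 site). The Krt7 stretch held 4 GC boxes, at 141 and 128 bases before the start on the strand of the gene and at 56 and 24 bases on the other strand. The Krt20 stretch held 1 TATAAA, 29 bases before the start. The stretches of Krt8, Krt18, Krt23, Krt5 and Krt14 held none of these 4 motifs. Among 32851 mouse promoters of the same length, 12.4% held TATAAA, 32.7% the GC box, 33.8% CCAAT and 6.7% the AP-1 site. A match describes letters in this window and is not a measured binding site.

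Krt8 and Krt18 form the basic keratin pair of simple epithelia. On GRCm39 they lie next to each other on chromosome 15, Krt8 at chr15:101905133-101912917 on the minus strand and Krt18 at chr15:101936615-101940462 on the plus strand, 23697 bases apart, although they belong to different keratin types. In DDKC_9750, Krt8 measured 1137 and 1350 CPM in the 2 untreated libraries and 747 and 852 CPM in the 2 treated ones. In DDKC_9790 it measured 2487 and 2994 CPM untreated and 2067 and 2534 CPM with rDKK3, and in DDKC_9804 1107 and 1371 CPM untreated and 804 and 985 CPM with rDKK3. Both treated libraries lay below both untreated ones in DDKC_9750 and DDKC_9804, whereas in DDKC_9790 the higher treated library lay above the lower untreated one. Compared within the same library number, treated Krt8 was lower in DDKC_9790 too (2067 against 2487 CPM, and 2534 against 2994 CPM).

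Krt18 was likewise highest in DDKC_9790. It measured 1460 and 1436 CPM in untreated and 852 and 862 CPM in treated DDKC_9750, and 3599 and 3548 CPM in untreated and 3067 and 3119 CPM in treated DDKC_9790. DDKC_9804 had 1437 and 1434 CPM untreated and 1312 and 1308 CPM with rDKK3. The treated libraries of Krt18 were below the untreated ones in every line, by 40.2% in DDKC_9750, by 12.6% in DDKC_9790 and 8.73% in DDKC_9804. Over the 6 sums, log2 CPM of Krt8 and Krt18 correlated at r = 0.98, a description over samples that share lines.

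Krt19 is the smallest keratin and pairs with Krt8 or Krt7 in ducts. It lies at chr11:100031636-100039491 on the minus strand. DDKC_9750 measured 1162 and 1165 CPM untreated and 770 and 792 CPM with rDKK3. DDKC_9790 measured 2044 and 2088 CPM untreated and 1340 and 1405 CPM with rDKK3, and DDKC_9804 measured 1454 and 1531 CPM untreated and 1053 and 1078 CPM with rDKK3. All 6 treated libraries were below the untreated libraries of their own line, and the sums were lower by much the same share in each, 32.2% in DDKC_9750 (95% counting interval 30.6 to 33.8%), 33.1% in DDKC_9790 (32.1 to 34.2%) and 29.1% in DDKC_9804 (27.7 to 30.4%). Treated DDKC_9790 cells still had more Krt19 than untreated DDKC_9750 cells, so the sums of the conditions overlapped.

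Krt7, the second type II keratin of ducts, lies at chr15:101308924-101328194 on the plus strand. Untreated DDKC_9750 had the most, at 939 and 934 CPM, and its treated libraries had 451 and 432 CPM. DDKC_9790 measured 536 and 528 CPM untreated and 454 and 472 CPM with rDKK3, and DDKC_9804 measured 504 and 496 CPM untreated and 206 and 208 CPM with rDKK3. Krt7 was the keratin whose 3 treated sums (207 to 468 CPM) all lay below its 3 untreated sums (498 to 929 CPM). The difference varied in size between lines. Treated cells were 2.12-fold lower in DDKC_9750 (95% counting interval 2.05 to 2.18) and 2.41-fold in DDKC_9804 (2.31 to 2.51), against 1.13-fold in DDKC_9790 (1.10 to 1.17). A line-dependent response could not be tested, since 6 sums leave no degree of freedom for it.

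**Figure D1:**
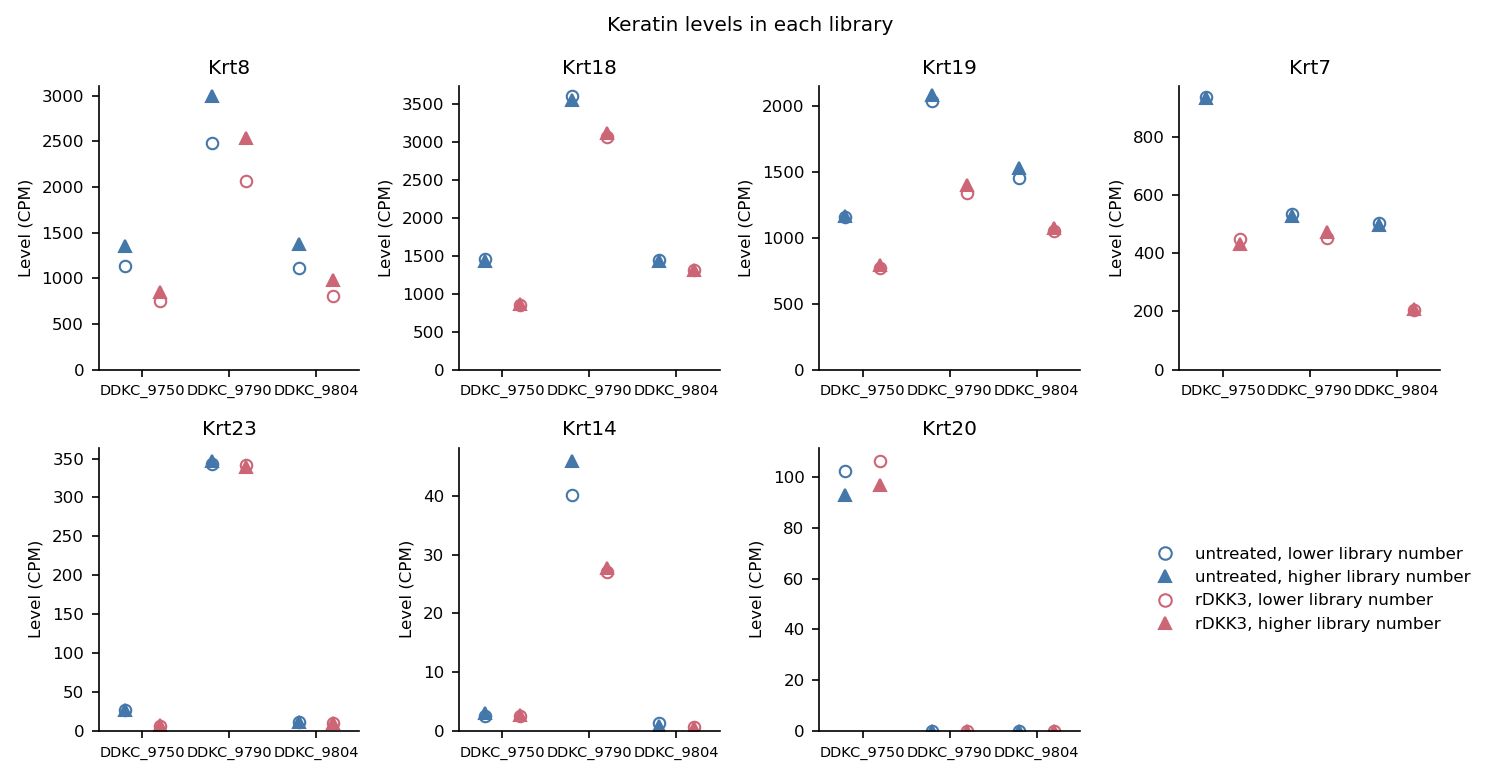
Level of each of the 7 tested keratins in CPM (vertical axes, each from 0) in the 12 libraries by line, blue for untreated and red for rDKK3, with open circles for the lower and triangles for the higher library number. Krt19 and Krt7 have both red points below both blue points in each line, Krt23 and Krt14 stand out in DDKC_9790, and Krt20 is near 0 outside DDKC_9750.

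Krt23 is a type I keratin whose gene lies beside that of Krt20, at chr11:99368800-99383963 on the minus strand, 39823 bases from Krt20. DDKC_9790 measured 343 and 347 CPM untreated and 342 and 340 CPM with rDKK3. DDKC_9750 measured 26.5 and 27.0 CPM untreated and 6.53 and 7.90 CPM with rDKK3, and DDKC_9804 measured 11.7 and 11.1 CPM untreated and 11.0 and 10.8 CPM with rDKK3. Krt23 differed more between DDKC_9790 and the other lines than between conditions. The difference between conditions stood out in DDKC_9750, where 802 counts untreated and 76 counts with rDKK3 gave a level 72.3% lower (95% counting interval 65.0 to 78.4%). In DDKC_9790 and DDKC_9804 the counting intervals of the change included 0.

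Krt20, a type I keratin of intestinal epithelium and urothelial umbrella cells, lies at chr11:99319229-99328976 on the minus strand. DDKC_9750 had 1172 and 1712 counts untreated (102 and 92.7 CPM) and 423 and 613 counts with rDKK3 (106 and 96.8 CPM). The libraries of DDKC_9790 and DDKC_9804 had 0 or 1 count each, at or under the floor. Untreated DDKC_9750 was at least 743-fold higher than untreated DDKC_9790, taking the floor of 3 counts over the sum. Against untreated DDKC_9804, which had 1 count, the ratio was 3360, with a counting interval from 603 upward. Within DDKC_9750 the level with rDKK3 was 4.90% above untreated, with a counting interval from -2.38 to 12.7%, which includes 0.

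The basal keratins were low or absent. Krt14 (chr11:100093988-100098374, minus strand) measured 40.1 and 45.9 CPM in untreated and 27.0 and 27.7 CPM in treated DDKC_9790, 37.6% lower over the sum (95% counting interval 30.5 to 44.0%). In DDKC_9750 it measured 2.62 and 3.03 CPM untreated and 2.51 and 2.68 CPM with rDKK3, and in DDKC_9804 1.41 and 0.928 CPM untreated and 0.646 and 0.531 CPM with rDKK3, the latter on 3 and 4 counts. Only DDKC_9790 had Krt14 at a level where the counting interval of the change excluded 0.

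Krt5 (chr15:101615505-101621333, minus strand), the type II partner of Krt14 in basal cells, had 0 to 2 counts per library, below the floor in every library. Krt14 in DDKC_9790 was therefore found without a measurable level of Krt5. Krt17 (chr11:100147043-100151855, minus strand) and Krt6a (chr15:101598345-101602742, minus strand) had 0 counts in all 12 libraries, which allows levels up to the floors of 0.127 to 0.754 CPM. Krt19, Krt14 and Krt17 lie in this order within the type I cluster, with 54496 bases between Krt19 and Krt14 and 48668 between Krt14 and Krt17.

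To compare levels between keratins, CPM was divided by the exon length of the canonical GENCODE transcript in kilobases. Per length and averaged over the 6 sums, Krt18 was highest at 1358 CPM per kb, followed by Krt19 at 843, Krt8 at 806, Krt7 at 125, Krt23 at 79.2, Krt20 at 17.0, Krt14 at 7.73 and Krt5 at 0.0409 CPM per kb. The range over the sums was 414 to 1448 CPM per kb for Krt8 and 497 to 1316 CPM per kb for Krt19, so these neighbours in the order did not separate. The order also differed by line, since in DDKC_9750 Krt20 (49.7 and 52.1 CPM per kb) was above Krt23 (17.0 and 4.71 CPM per kb), and in the other lines Krt14 was above Krt20. In DDKC_9790 Krt23 (221 and 219 CPM per kb) was above Krt7 (129 and 114 CPM per kb), and Krt8 (1448 and 1208 CPM per kb) was above Krt19 (1316 and 880 CPM per kb). The canonical Krt7 transcript is 4094 bases long against 1437 to 2278 for the others, which lowers its value per length. In CPM without this division, Krt7 (530 and 468) was above Krt23 (346 and 342) in DDKC_9790. With the shortest annotated coding transcript in place of the canonical one, Krt19 (335 bases, against 1576) would be at 3964 CPM per kb. That is above Krt18 at 1364, and Krt14 (1044 bases) would be at 12.6 CPM per kb. All counts of the gene were divided by this shortest length, so the Krt19 value is an extreme and not an estimate. Which transcripts these cells use was not measured, so the order of Krt18 and Krt19 was not settled here.

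Per length, Krt8 was the main type II chain in every sum. Krt7 made up 26.1% of the summed type II level in untreated DDKC_9750 and 20.6% after rDKK3, 15.6% and 9.76% in DDKC_9804, and 8.21% and 8.64% in DDKC_9790. The size of these shares rests on the 4094-base length used for Krt7. Among type I chains, Krt19 made up 26.8 to 48.7%, lowest in treated DDKC_9790 and highest in untreated DDKC_9804. Krt23 reached 5.46% of the type I level in untreated and 6.66% in treated DDKC_9790, and at most 0.945% in the other lines. Krt20 contributed 2.76% in untreated and 4.52% in treated DDKC_9750. The summed type I level was 2.07 to 3.08 times the summed type II level, with the lowest ratio in untreated DDKC_9750 and the highest in treated DDKC_9804. With the shortest coding transcripts in place of the canonical ones, this ratio was 4.93 to 7.89 and the Krt19 share 63.1 to 81.6%. Both values divide all Krt19 counts by 335 bases, so they are extremes and not estimates. RNA was measured, and the amounts of protein were not.

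**Figure D2:**
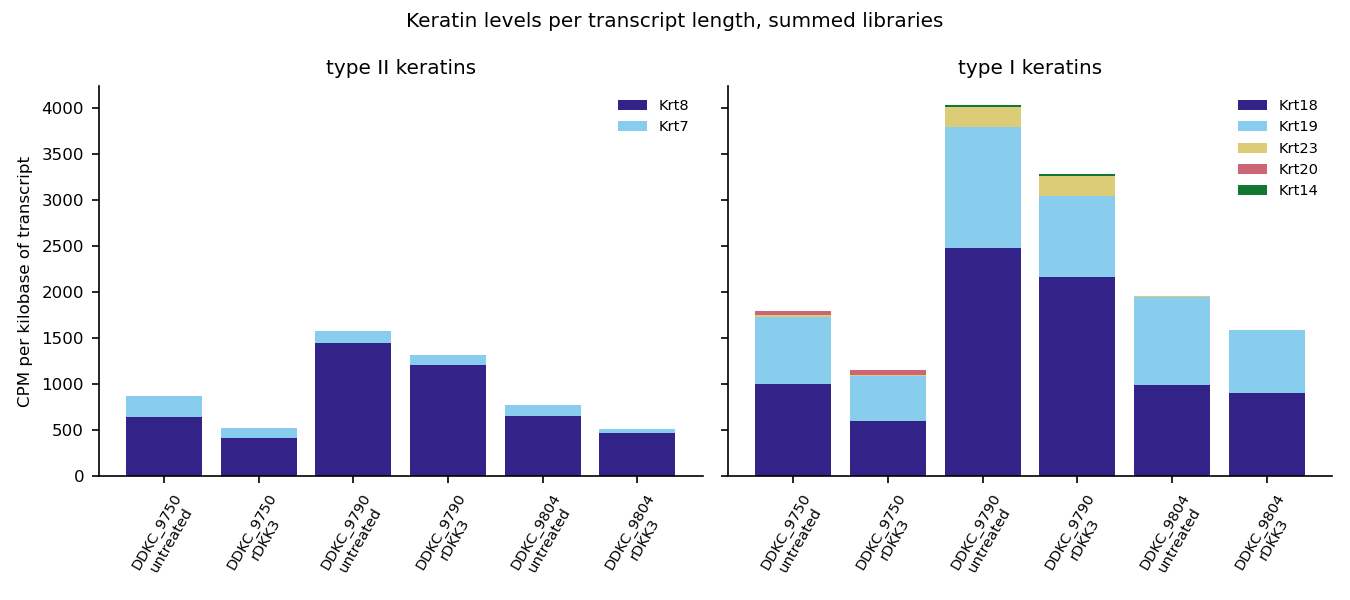
Stacked bars of CPM per kilobase of transcript (vertical axis) for type II chains on the left and type I chains on the right, in the 6 sums by line and condition. Krt8 fills most of the type II bars, Krt18 and Krt19 fill most of the type I bars, and both stacks are tallest in DDKC_9790.

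The first comparison asked whether the keratins differed between the lines, over both conditions. Of the 7 tested keratins, 6 differed between the lines at an adjusted p under 0.05 by the quasi-likelihood F test of edgeR, adjusted by Benjamini-Hochberg over 15165 genes, of which 35.3% were called. Krt20 passed the filter on low counts through DDKC_9750 alone, so it had to differ, and its call is a description. Adjusted p-values from edgeR for the other 5 were 0.00166 for Krt14, 0.0048 for Krt23, 0.00778 for Krt8, 0.0101 for Krt18 and 0.0233 for Krt19. Krt7 had an adjusted p of 0.0938 and was the exception.

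DDKC_9790 had more of 5 keratins than DDKC_9750. In log2 units the difference was 1.36 for Krt8 (SE 0.17), 1.58 for Krt18 (SE 0.21), 0.83 for Krt19 (SE 0.14), 4.46 for Krt23 (SE 0.51) and 3.70 for Krt14 (SE 0.26), with edgeR adjusted p-values of 0.00366 to 0.0164. Krt20 went in the other direction, and 27% of all genes were called in this contrast. DDKC_9790 also had more than DDKC_9804 of Krt8, Krt18, Krt23 and Krt14, with log2 differences of -1.26, -1.28, -4.99 and -5.38 for DDKC_9804 minus DDKC_9790 (edgeR adjusted p from 0.0023 to 0.0166, with 21.3% of all genes called). The Krt19 difference between these lines, -0.42 (SE 0.14), did not pass (edgeR adjusted p = 0.0912).

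DDKC_9750 and DDKC_9804 differed in Krt14 and, by the filter, in Krt20, where 18.5% of all genes were called. For DDKC_9804 minus DDKC_9750 the log2 difference of Krt14 was -1.68 (SE 0.29, edgeR adjusted p = 0.0196). From the library with the lower number alone this was -1.17 with an adjusted p of 0.0828 in the same edgeR test. For Krt8 the same difference was 0.10 (SE 0.16), for Krt18 0.29 (SE 0.20) and for Krt19 0.41 (SE 0.14), and none of these passed in edgeR. DESeq2 on the same sums called Krt19 in both contrasts of DDKC_9804, higher than DDKC_9750 (0.42, adjusted p = 0.029) and lower than DDKC_9790 (-0.43, adjusted p = 0.0241), where it called 23.8% and 25.5% of all genes. It also called Krt7 for DDKC_9804 minus DDKC_9750 (-0.98, adjusted p = 0.00674), as did edgeR with no filter on low counts (adjusted p = 0.0113) and with the 12 libraries (adjusted p = 0.000737). By edgeR's test, DDKC_9790 was highest for Krt8, Krt18, Krt23 and Krt14, and the other two lines did not pass against each other for Krt8, Krt18, Krt19 and Krt23. For Krt19 the order was DDKC_9790, DDKC_9804 and DDKC_9750, where neighbours passed in DESeq2, and in edgeR with the 12 libraries (adjusted p = 0.000151 and 0.000104), but not in edgeR on the sums. Each line is a single line, and its untreated and treated sums stand as its repeats in this test.

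The second comparison asked whether rDKK3 changed keratin levels over the 3 lines. Means over the lines were 1793 ± 903 CPM untreated and 1364 ± 869 CPM with rDKK3 for Krt8 (SD, n = 3 lines), 2143 ± 1229 and 1760 ± 1194 CPM for Krt18, 1577 ± 464 and 1078 ± 302 CPM for Krt19, and 652 ± 240 and 371 ± 143 CPM for Krt7. The SD between lines exceeded the difference between condition means for Krt8 and Krt18 but not for Krt19, and for Krt7 the difference exceeded both SDs. Pairing each treated sum with the untreated sum of its line takes the line differences out.

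Of the 7 tested keratins, 0 passed an adjusted p under 0.05 in the paired edgeR test on the 6 sums. The same test called 0.00659% of all genes, which is 1 gene, Lcn2, higher after rDKK3. The fitted log2 fold change was -0.84 for Krt7 (SE 0.24), -0.55 for Krt19 (SE 0.12), -0.46 for Krt8 (SE 0.13) and -0.35 for Krt18 (SE 0.17). Their adjusted p-values from edgeR were 0.578, 0.578, 0.578 and 0.617. Unadjusted p-values from edgeR were 0.0151 for Krt7, 0.0046 for Krt19 and 0.0167 for Krt8, so 3 of 7 keratins were lower at an unadjusted p under 0.05, as were 5.16% of all genes (8.53% changed in either direction at this threshold).

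Krt23 and Krt14 had fitted log2 fold changes of -0.58 (SE 0.39, edgeR adjusted p = 0.691) and -0.54 (SE 0.22, edgeR adjusted p = 0.587). Krt20 had 0.23 (SE 0.35, edgeR adjusted p = 0.859), which rests on DDKC_9750 and on 0 to 2 counts per sum in the other lines. DESeq2 called Krt19 alone (adjusted p = 0.00606), and 0.435% of all genes lower. With the 12 libraries as separate replicates edgeR called 5 keratins lower, Krt7, Krt8, Krt18, Krt19 and Krt14, along with 10.1% of all genes lower and 7.95% higher, and that fit takes both libraries of a line and condition as independent, which the labels leave unstated. In an exact permutation test over the 3 paired lines, 3 changes in 1 direction give a two-sided p of 0.25, the smallest this design allows.

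**Figure D3:**
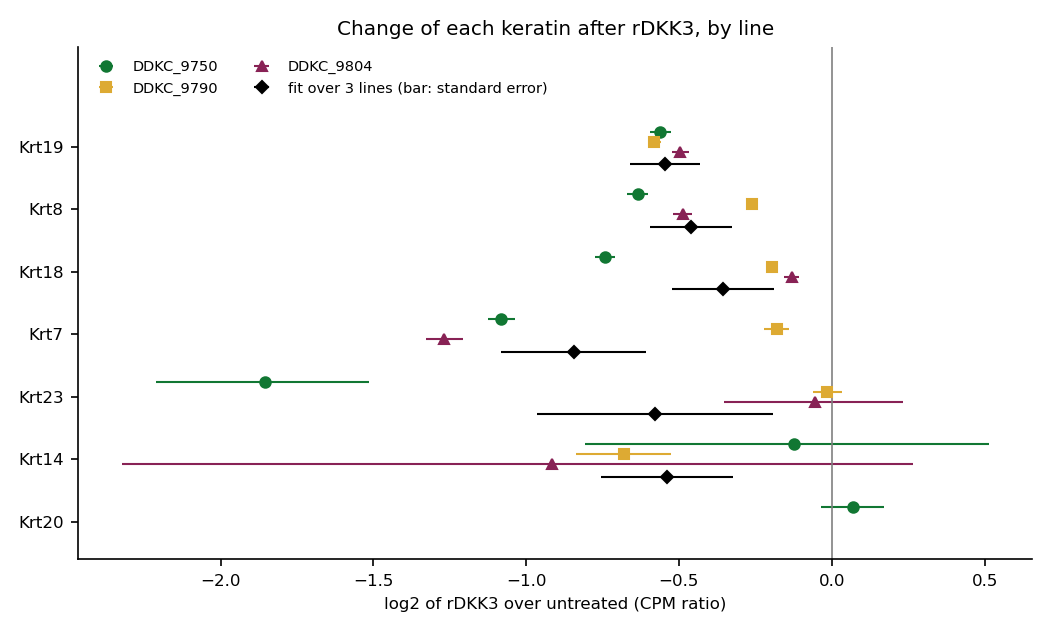
Log2 ratio of rDKK3 over untreated CPM (horizontal axis) for each keratin, by line, with 95% counting intervals as bars, and in black the fit over 3 lines with its standard error. The 3 Krt19 points lie together between -0.58 and -0.50, those of Krt7 and Krt23 spread widely, and Krt20 is drawn for DDKC_9750 only, without a fit.

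The direction was shared more than the size. Krt7, Krt8, Krt18, Krt19, Krt23 and Krt14, 6 of the 7 tested keratins, were lower after rDKK3 in all 3 lines, as were 18.3% of all genes. For Krt23 in DDKC_9790 and DDKC_9804, and for Krt14 in DDKC_9750 and DDKC_9804, the counting interval of the change included 0. For Krt7, Krt18, Krt19 and Krt23 both treated libraries were below both untreated libraries in each line, as for 8.52% of all genes and 22.4% of those at 500 CPM or more. Krt7 was the keratin with all 3 treated sums below all 3 untreated sums, which held for 2.12% of all genes. The median fitted log2 fold change of the 7 keratins was -0.54, against -0.0054 over all genes tested.

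The most abundant genes tended to be lower after rDKK3, and the main keratins are among them. Over 2364 genes that averaged 100 CPM or more, the median fitted log2 fold change was -0.029 and 24.2% were lower in all 3 lines. Among 254 genes that averaged 500 CPM or more, a threshold chosen after the values were seen, the median fitted log2 fold change was -0.20. Of these genes, 43.3% were lower in all 3 lines and 19.7% were lower at an unadjusted p under 0.05 in edgeR's test. Krt7, Krt8, Krt18 and Krt19 belong to these genes, and their fitted values of -0.35 to -0.84 were all below that median. The part of expression level in the keratin values was not tested.

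**Figure D4:**
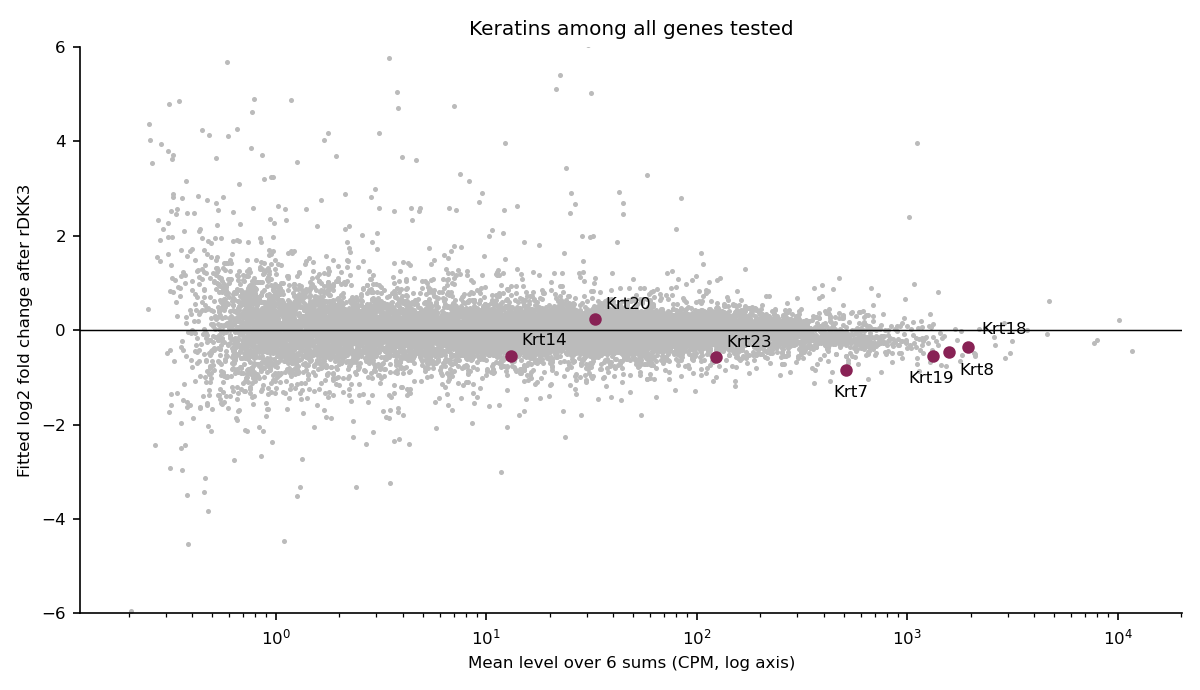
Fitted log2 fold change after rDKK3 (vertical axis) against mean level over the 6 sums in CPM (log axis) for all genes tested, with the 7 keratins in purple. 14 genes lie outside the axis limits of -6 and 6, and the most abundant genes, Krt8, Krt18, Krt19 and Krt7 among them, lie mostly below 0.

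Leaving out a line moved some of these values. Without DDKC_9750 the fitted log2 fold change of Krt18 went from -0.35 to -0.15 and that of Krt23 from -0.58 to -0.028, and Krt23 went to -0.94 without DDKC_9790. Krt20 went from 0.23 to 2.53 without DDKC_9750, where 0 to 2 counts per sum remained, and to 0.11 without DDKC_9804. Krt19 kept between -0.57 and -0.52 with any line left out, Krt8 between -0.55 and -0.37, and Krt7 between -1.17 and -0.63.

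The libraries themselves also differed for Krt8. In all 6 pairs of libraries from a line and condition the library with the higher number had more Krt8, by 0.19 to 0.31 on the log2 scale, a mean of 20.3%. Krt19 was also higher in all 6 pairs, by 0.0032 to 0.075 on the log2 scale, and 10.2% of all genes were higher in all 6. Krt18 and Krt7 had differences of both signs, from -0.061 to 0.056. With the library number as a covariate in the 12-library fit, the Krt8 log2 fold change was -0.45 (edgeR adjusted p = 0.00138). On the sums it was -0.46 (edgeR adjusted p = 0.578). The 12-library fit takes both libraries of a line and condition as independent.

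**Figure D5:**
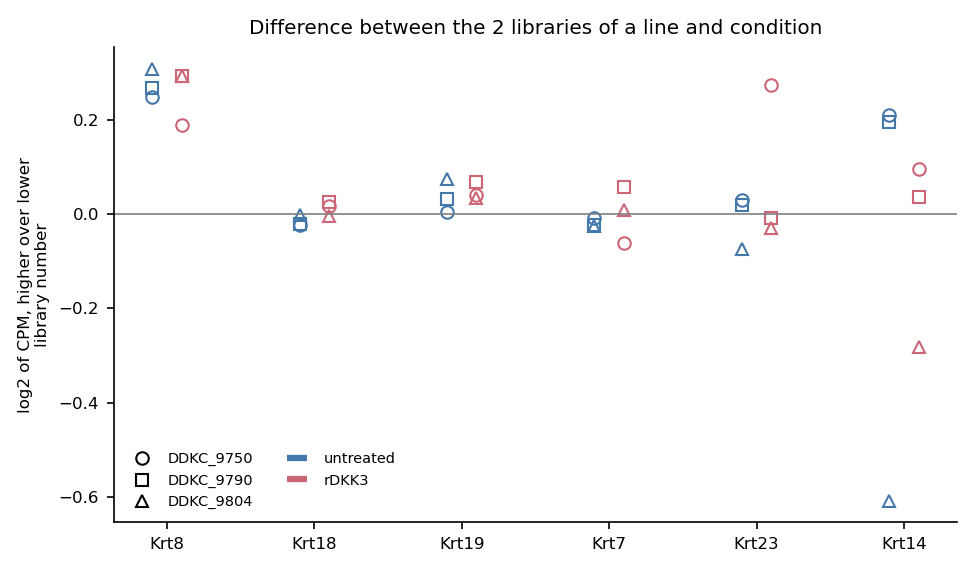
Log2 ratio of CPM in the library with the higher number over that with the lower number (vertical axis), for 6 keratins, by line (symbol) and condition (colour). All 6 Krt8 points lie between 0.19 and 0.31, while those of Krt18 lie close to 0.

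A processed copy of Krt8 is annotated as Krt8-ps on chromosome 7 (chr7:23056550-23057494). It had 937 counts in all, 0.441% of those of Krt8. It had 0.235 to 0.338 counts per 100 Krt8 counts in the libraries with the lower number and 0.421 to 0.593 in those with the higher number. Reads shared between Krt8 and its copy could have been split by the counting, so the Krt8 values are uncertain in this respect. The noncoding gene Gm36026 overlaps the start of Krt8 on the opposite strand, at 53.9 to 189 CPM over the sums, and the counting was specific to strand. Gm36026 was lower after rDKK3 in each line, with 91.8 and 53.9, 189 and 156, and 86.4 and 59.7 CPM in DDKC_9750, DDKC_9790 and DDKC_9804.

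The labelled cell type was checked with epithelial, ductal and other markers. Cdh1, the epithelial adhesion protein E-cadherin, measured 309 to 1047 CPM over the sums, and the ductal transcription factor Sox9 measured 108 to 392 CPM. Sox9 was higher with rDKK3 in each line, unlike the ductal keratins other than Krt20, with 108 and 146 CPM in DDKC_9750, 130 and 149 CPM in DDKC_9790, and 299 and 392 CPM in DDKC_9804. Its log2 fold change of 0.34 (SE 0.11) did not pass on the sums (edgeR adjusted p = 0.578) and passed in edgeR with the 12 libraries as separate replicates (adjusted p = 0.00268). Epcam, a surface protein of simple epithelia, was near 0 at 0.41 to 2.04 CPM, and the tight junction genes Cldn4 and Cldn7 were at most 2.71 CPM. Esrp1, an epithelial splicing factor, had 7 counts in all. The cells thus had abundant simple-epithelial keratins and Cdh1 with little Epcam.

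Markers of other cell types were low. The 8 acinar genes summed to 0.684 to 11.8 CPM untreated and 0.574 to 11.0 CPM with rDKK3, led by Cela1 in every sum, and 4 of them were at 0 in all libraries. The 7 fibroblast genes summed to 7.26 to 12.9 CPM untreated and 5.74 to 11.7 CPM with rDKK3. The 6 leukocyte genes summed to 9.63 to 29.1 CPM untreated and 10.6 to 46.0 CPM with rDKK3, nearly all of it Cd68 and Csf1r, while the pan-leukocyte gene Ptprc had 6 counts in all and the T cell gene Cd3e had 0. Cd68 was higher with rDKK3 in each line, from 2.02 to 3.0, from 23.2 to 38.1 and from 2.65 to 6.72 CPM in DDKC_9750, DDKC_9790 and DDKC_9804. Its log2 fold change of 0.88 (SE 0.22) did not pass on the sums (edgeR adjusted p = 0.578) and passed with the 12 libraries (edgeR adjusted p = 0.00142). The 4 endothelial genes summed to 1.39 to 15.3 and 0.969 to 17.4 CPM, mainly Kdr, and their defining genes Pecam1 and Cdh5 had 13 and 2 counts in all. The 4 endocrine genes summed to at most 0.0859 CPM. The part of these low levels in the keratin values was not tested, and fewer cells with a keratin cannot be told apart from less keratin RNA per cell.

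Of the other keratin genes in the table, 45 in all, 33 had a count and 7 passed the filter on low counts. Krt13 and Krt80 were the ones with a mean of at least 10 CPM. Krt13, a type I keratin of inner layers of mucosal epithelia, measured 2.26 CPM untreated and 0.0969 CPM with rDKK3 in DDKC_9750, 32.2 and 25.6 CPM in DDKC_9790, and 20.6 and 20.8 CPM in DDKC_9804, and differed between lines (edgeR adjusted p = 0.0197). Krt80, a type II keratin, measured 18.5 and 15.4 CPM, 11.98 and 7.72 CPM, and 17.5 and 16.8 CPM in the same order. Neither passed the test for rDKK3 in edgeR (adjusted p = 0.75 for Krt13 and 0.65 for Krt80).

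Among 10 other intermediate filament genes, 6 were tested, 0 passed for rDKK3, 3 were lower in all lines (18.3% of all genes were, and 43.3% of those at 500 CPM or more), and the median log2 fold change was -0.34. Vim, the mesenchymal filament protein vimentin, was the most abundant of them in DDKC_9750, DDKC_9790 and DDKC_9804 at 2591, 4788 and 3374 CPM untreated, and measured 1612, 3406 and 2756 CPM with rDKK3. Its log2 fold change was -0.49 (SE 0.14, edgeR adjusted p = 0.578 on the sums). With the 12 libraries as separate replicates it passed in edgeR (adjusted p = 0.00124). Lmna, a nuclear lamin, measured 439, 987 and 848 CPM untreated and 305, 854 and 776 CPM with rDKK3. It also passed only with the 12 libraries (edgeR adjusted p = 0.0147, against 0.617 on the sums). Nes, the filament protein nestin, measured 160, 233 and 1001 CPM untreated and 80.2, 278 and 1247 CPM with rDKK3, so it moved in different directions in different lines.

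Keratin filaments are anchored at desmosomes between cells and at hemidesmosomes on the matrix. Of 12 desmosome genes, 10 were tested, 0 passed for rDKK3, 6 differed between lines (35.3% of all genes did), and the median log2 fold change was -0.26. The most abundant were Jup (plakoglobin), Dsp (desmoplakin) and Perp, with log2 fold changes of -0.24 (SE 0.17), -0.05 (SE 0.11) and -0.48 (SE 0.20). With the 12 libraries as separate replicates, Perp passed in edgeR (adjusted p = 0.0227), and Jup and Dsp did not. Of 9 hemidesmosome genes, 8 were tested, 0 passed for rDKK3, 7 differed between lines (35.3% of all genes did), and the median was -0.28. Itga6 and Itgb4, which form the laminin-binding integrin of hemidesmosomes, had -0.35 (SE 0.21) and -0.46 (SE 0.17). Plec, the plectin that links the integrin to keratin, had 0.09 (SE 0.13). With the 12 libraries as separate replicates, Itgb4 passed in edgeR (adjusted p = 0.00747), and Itga6 and Plec did not.

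Of 10 epithelial transcription factors, 5 were tested, 0 passed for rDKK3, 3 differed between lines (35.3% of all genes did), and the median log2 fold change was 0.10. Klf5, Klf4 and Ehf were the most abundant, with log2 fold changes of -0.13 (SE 0.13), 0.10 (SE 0.15) and 0.59 (SE 0.42). The Ehf value came from DDKC_9750, at 115 CPM untreated and 378 CPM with rDKK3, while its log2 change was -0.18 in DDKC_9790 and -0.01 in DDKC_9804. Trp63, the p63 factor of basal cells, had 69 counts in all and was highest in treated DDKC_9750, at 3.10 CPM. In the other lines it was at most 0.171 CPM. Trp63 thus passed the filter on low counts through DDKC_9750 alone and had to differ. Its call between lines, among the 3 given above (edgeR adjusted p = 0.0247), is a description. Grhl2 had 13 counts and Ovol2 had 3 counts in all.

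The genes whose log2 CPM followed a keratin most closely over the 6 sums were sought among 9897 genes with a mean of at least 10 CPM, other keratins of the set excluded. For Krt19 these were Pgls, Ccnb2, Prdx3, Trim59 and Guk1, with r from 0.983 to 0.99. For Krt7 they were Ino80dos, Bloc1s3, Erg28, Med29 and Lage3, with r from 0.977 to 0.995. Krt17 had no counts and therefore no such genes. The values describe likeness over 6 sums that share 3 lines, and with so few samples high values arise readily among many genes.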

How the data were processed

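The authors sequenced total RNA of the 12 libraries with a directional kit as read pairs, aligned the reads to GRCm39 with STAR 2.7.9a, counted them per exon by strand with GenomicAlignments on the GENCODE basic annotation and summed the exons of each gene. They deposited raw counts per gene, with no normalization. Their processing notes also name DESeq2 1.38.0, Picard 2.19.2 and R 4.2.2. Columns were matched to samples by name, and groups came from the labels. The keratins and gene lists were chosen with earlier results of these data known.

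Here the counts of the 2 libraries of a line and condition were added. The 6 sums were tested with edgeR 4.0.16 (R 4.3.3, TMM normalization, quasi-likelihood test) with line and treatment in the model, and the 15165 genes kept by edgeR's filter on low counts were adjusted together by Benjamini-Hochberg with a threshold of 0.05. CPM is relative to TMM-scaled totals, and log2 CPM used a prior count of 2. The line pairs the conditions because the same cell line was used in both. Deviations from the condition means correlated at 0.82, 0.87 and 0.80 within a line and from -0.53 to -0.27 between lines. Within a condition the deviations of the 3 lines sum to 0, so the values between lines tend to be negative by construction. Standard errors were derived from the F statistic. Counting intervals (95%) for ratios are exact conditional binomial intervals, and floors use 3 counts. In the edgeR fit on the sums, the residual is the variation of the rDKK3 change among these 3 lines, plus noise. The p-values for rDKK3 and those between lines are both set against it, with the spread moderated over all genes. Named genes were all 10 members, other keratins with a mean of at least 10 CPM, and the 3 most abundant genes of each list. Single markers, and Trp63, Grhl2 and Ovol2, were named after their values were seen. On simulated counts for the test of rDKK3 on 15165 genes, 51 of 100 genes changed by a log2 of 1 and 94 of 100 changed by a log2 of 2 were recovered, with 12 false calls. It was a single draw, with each change the same in all 3 lines and planted only in genes with higher counts. The fitted keratin changes were all smaller than a log2 of 1, so recovery at their size was not tested. Alternatives were DESeq2 1.42.0, limma 3.58.1 (voom), RLE normalization, other filters, single libraries, 12 separate libraries, a library number covariate, no line and each line left out. The level of the proteins was not analysed here. An allele shared by all groups and a marker gene are not reported here.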

Additional observations from a re-analysis of the deposited data

How the results depend on the processing

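With the replicate block, the line, left out of the fit, the number of keratins called after rDKK3 was again 0, and the number lower at an unadjusted p under 0.05 went from 3 to 0. Without the line, Krt7, Krt8, Krt18 and Krt19 had log2 fold changes of -0.81, -0.39, -0.28 and -0.55, each with an adjusted p of 1.00 in edgeR's test, while Krt23 went from -0.58 to -0.087, Krt20 from 0.23 to 0.068 and Krt14 from -0.54 to -0.64. The number of keratins called after rDKK3 was 5 with the 12 libraries as separate replicates, 5 with those libraries and the library number as a covariate, and 1 with DESeq2. It was 0 with RLE normalization, limma-voom, no filter on low counts, at least 10 counts in every sum (where Krt20 and Krt14 left the 7 tested), either library alone, and each line left out in turn. The number of keratins that differed between lines was 6 of 7 (35.3% of all genes), against 7 of 7 with the 12 libraries (77.7%) and with DESeq2 (41.2%), 7 of the 8 tested with no filter (22.7%), 4 of the 5 left with at least 10 counts in every sum (34.1%), and 6 with RLE (35.9%), limma-voom (38.5%) and the library of the lower (33.5%) or higher number (37%) alone. No fitted fold change after rDKK3 and no difference between lines changed sign.

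Over all genes, the edgeR calls after rDKK3 were 1 higher and 0 lower, against 1205 and 1539 with the 12 libraries, 1318 and 1806 with the library number as a covariate, 29 and 66 with DESeq2, 41 and 49 with no filter, and 6 and 0 with the library of the lower number. They were 0 and 0 with no replicate block, with at least 10 counts in every sum and without DDKC_9750 or DDKC_9790, and 2 and 0 without DDKC_9804. Genes at an unadjusted p under 0.05 numbered 1294 on the sums and 94 with no replicate block. Depth limited Krt14 outside DDKC_9790, Krt20 outside DDKC_9750 and Krt5 throughout. The causes of these differences were not tested.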
